A study of Mus musculus with 6 samples.

Results

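Costimulatory and checkpoint molecules are surface proteins with which antigen-presenting cells raise or restrain T cell responses. The 10 genes described here were taken from the deposited table of read counts by their symbol, out of 54532 genes: *Cd274*, *Pdcd1lg2*, *Cd80*, *Cd86*, *Icosl* and *Cd276*, which encode ligands of the B7 family, *Cd40* and *Havcr2*, which encode receptors, and *Cd69* and *Cd83*, which encode surface markers of activation. Of the 10, 9 passed the filter on low counts and were tested among 12296 genes, and *Pdcd1lg2* did not. RNA was sequenced from 6 samples of the murine microglial cell line N9, all grown in the same serum-containing medium, of which 3 were untreated controls and 3 had been stimulated with lipopolysaccharide (LPS), a molecule of bacterial outer membranes, at 1 µg/ml for 6 h. N9 is an immortalized line that stands for microglia in culture. The labels number the replicates without saying whether they came from separate cultures, so the p-values measure the spread between these samples, which may be technical.

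A T cell that recognises antigen needs a second signal, which CD80 and CD86 on the presenting cell deliver through CD28 on the T cell, while CTLA-4 binds the same pair and restrains the response. PD-L1 and PD-L2 bind the inhibitory receptor PD-1, and the ligand of ICOS provides a further stimulatory signal. CD40 is engaged by CD40 ligand on helper T cells and signals into the presenting cell through TRAF adaptors. Resting microglia in the brain are known for low levels of several of these molecules, and toll-like receptor ligands such as LPS are used to activate them.

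The total count was between 16363767 and 17956772 per library, so that 3 counts corresponded to between 0.161 and 0.19 CPM, the unit of counts scaled to a common library size. All 6 genes chosen to check the treatment were up-regulated (median log2 fold change 5.29), and *Tnf*, *Il1b*, *Cxcl10*, *Ifit1*, *Acod1* and *Nfkbia* were each a differentially expressed gene (DEG). The largest changes among them were 7.07 for *Ifit1*, 7.04 for *Cxcl10*, 5.88 for *Il1b* and 4.71 for *Acod1*. Of 17 markers of microglia and macrophages 14 were tested, with 5 higher, 4 lower and a median log2 fold change of -0.03. Among all tested genes 18.7% were higher and 15.7% lower at an adjusted p below 0.05. The summed level of the markers was between 4059 and 4088 CPM in control cells and between 5086 and 5268 CPM with LPS. The most abundant was *Cd14*, at 1712 CPM in control and 2621 CPM in LPS-stimulated cells. Defining microglial genes were low or absent, since *P2ry12* had at most 6 counts, *Aif1* at most 9 and *Sall1* at most 1 in any library. A pair of libraries stood apart, because 14 hepatocyte markers summed to 94, 413 and 624 counts in control replicates 1, 2 and 3 and to 78, 84 and 113 with LPS, and *Alb* alone took 2, 155 and 292 counts of these in control replicates 1, 2 and 3. Of these markers 1 was tested, *Ambp*, which was not called. Values with control replicates 2 and 3 both left out are therefore given beside the results of the 10 genes, and once for the genes of the lists, where the lone control is assumed to vary like the LPS libraries.

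In LPS-stimulated N9 microglia versus control, 4 of the 10 genes were up-regulated DEG, *Cd274*, *Cd40*, *Cd69* and *Cd83*, and no gene of the 10 was down-regulated. Here a DEG had to pass 2 limits in edgeR's quasi-likelihood test, an adjusted p (Benjamini-Hochberg) below 0.05 and a log2 fold change beyond 1.5 in either direction. Among all genes tested 2.4% were up-regulated DEG. When the limit on fold was dropped, 6 of the 10 were higher with LPS, since *Cd80* and *Havcr2* joined the 4 DEG, against 18.7% of all tested genes. None was lower, against 15.7% of all tested genes, and *Cd86*, *Icosl* and *Cd276* were not called. The same 6 genes had every LPS library above every control library, which held for 23.7% of the tested genes, and in the other 4 the groups overlapped. The median log2 fold change of the 9 tested genes was 1.04, beside 0.0036 over all tested genes. RNA was taken from whole cultures, so a change in the share of cells that express a gene and a change in its RNA per cell cannot be told apart.

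**Figure D1:**
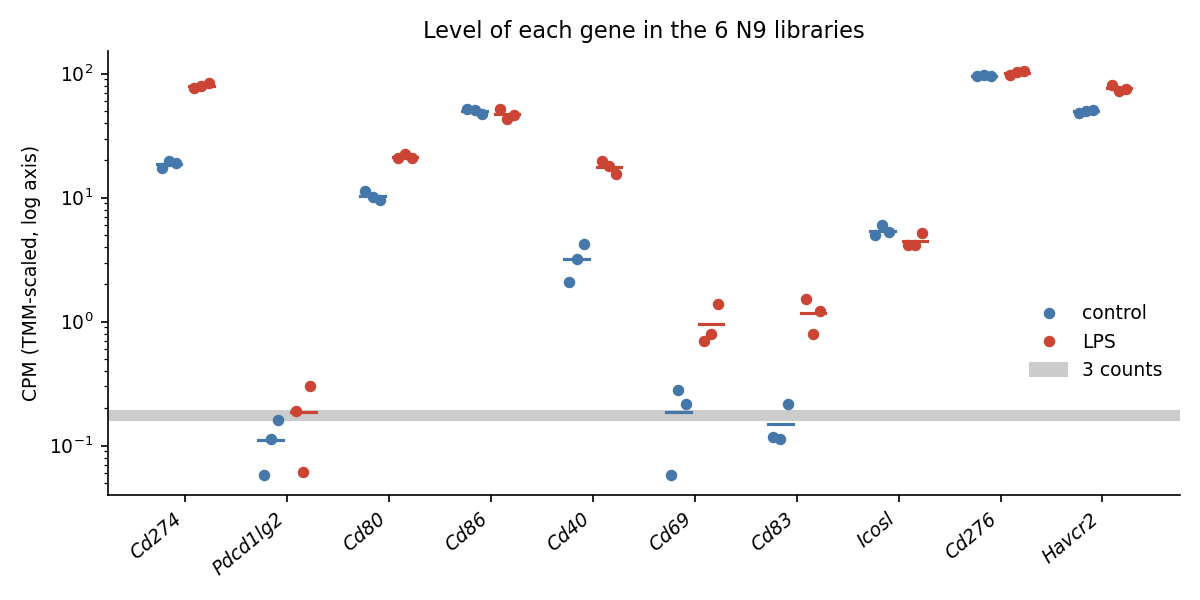
Level of each of the 10 genes in CPM on a log axis, where each point is 1 library (3 control, 3 LPS), each bar is the mean of a group and the grey band is the level of 3 counts. *Cd274*, *Cd80*, *Cd40*, *Cd69*, *Cd83* and *Havcr2* show LPS points above all control points, and *Pdcd1lg2* lies around the level of 3 counts in both groups.

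*Cd274* (ENSMUSG00000016496) encodes PD-L1, the ligand through which many cells engage PD-1 and restrain T cells. It had counts of 295, 351 and 353 in control replicates 1 to 3 and of 1205, 1301 and 1387 in the LPS replicates. The groups were far apart and the libraries within each lay close together. Its level went from 18.7 ± 1.36 CPM to 80.1 ± 4.09 CPM (SD, n = 3), a rise of 4.28-fold or 2.10 on the log2 scale (standard error, SE, 0.07, adjusted p = 5.03e-12). Over the 6 fits that each lacked a library, the log2 fold change ran from 2.03 to 2.14, and it was 2.22 with control replicates 2 and 3 left out. *Cd274* also passed glmTreat, the test in edgeR for a log2 fold change larger than 1.5 (adjusted p = 4.73e-06).

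The second PD-1 ligand, PD-L2, is encoded by *Pdcd1lg2* (ENSMUSG00000016498), a gene known for expression in dendritic cells and macrophages. *Pdcd1lg2* had counts of 1, 2 and 3 in control replicates 1 to 3 and of 3, 1 and 5 in the LPS replicates. No library was clearly above the rest and the groups overlapped. Summed over the groups the counts were 6 and 9, and the ratio of the rates, LPS over control, was 1.65 with an exact 95% interval from 0.524 to 5.62, which covers counting error only. A change of *Pdcd1lg2* was thus not detectable at this depth. The ratio of *Cd274* to *Pdcd1lg2* counts was 295, 176 and 118 in control cells and 402, 1301 and 277 in LPS-stimulated cells, and the mean log2 ratio was 7.51 ± 0.66 and 9.04 ± 1.16 (SD, n = 3). The difference of 1.52 gave a two-sided exact permutation p = 0.2, where the smallest p that 3 against 3 libraries allow is 0.1, and it rested on 1 to 5 counts of *Pdcd1lg2* per library. It was 0.83 with control replicates 2 and 3 left out.

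The 2 genes are neighbours on chromosome 19 of the mouse build GRCm38, with *Cd274* at chr19:29367455-29388095 and *Pdcd1lg2* at chr19:29410919-29471157, both on the plus strand and 22824 bases apart. *Plgrkt*, which encodes a plasminogen receptor, starts 65 bases from *Cd274* on the other strand. It had counts of 462, 480 and 505 in control replicates 1 to 3 and of 457, 377 and 437 in the LPS replicates, and its log2 fold change was -0.05 (SE 0.09, adjusted p = 0.705). On the far side of *Pdcd1lg2*, *Ric1* was lower with LPS, at a log2 fold change of -0.29 (SE 0.05, adjusted p = 4.19e-04). *Cd274* was thus a DEG between a gene that was not called and one that was too low to test.

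Because *Cd274* and *Pdcd1lg2* differed so widely in level, the sequence before each start is shown, from RefSeq on build GRCm38.p6, plus strand. Of the 10 genes, 6 matched a RefSeq promoter window, and the 250 bases before each start were searched on both strands for 5 motifs. These were NF-kappa B by its usual consensus, the core of the interferon regulatory factor (IRF) element AANNGAAA, the STAT site TTCNNNGAA, the AP-1 site TGANTCA and the PU.1 site GAGGAAG. Capitals mark the letters of a match. For *Cd274* the 47 bases at chr19:29367391-29367437 lie between the first exon of *Plgrkt* and the RefSeq start and hold no match. The 30 bases at chr19:29367252-29367281 lie in that exon of *Plgrkt*, and hold an IRF core on the minus strand from 175 to 168 bases before the start. The 250 bases of *Pdcd1lg2* are at chr19:29410669-29410918, with an NF-kappa B match from 244 to 235 and an IRF core from 35 to 28 bases before the start.
Cd274, 47 bases before the start: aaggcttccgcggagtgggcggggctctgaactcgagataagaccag
Cd274, IRF core site: ccgaagcctagTTTCGTTTtttcttaaact
Pdcd1lg2, 250 bases before the start: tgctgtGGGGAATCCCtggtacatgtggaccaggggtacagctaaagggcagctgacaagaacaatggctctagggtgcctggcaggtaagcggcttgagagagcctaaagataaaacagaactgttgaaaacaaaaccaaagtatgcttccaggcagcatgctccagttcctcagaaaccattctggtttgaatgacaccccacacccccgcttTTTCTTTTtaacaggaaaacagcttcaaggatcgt
Over 32807 windows of the same length, 21.3% held the IRF core and 7.25% held the NF-kappa B consensus. A match is a run of letters and no measurement of binding, and its lack says only that those letters are not in the window. The matches printed do not overlap each other. *Cd274* matched 1 of the 5 motifs and *Pdcd1lg2* matched 2.

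*Cd80* (ENSMUSG00000075122, chr16:38455561-38496335, plus strand) encodes B7-1, one of the shared ligands of CD28 and CTLA-4. Control replicates 1 to 3 had 195, 179 and 179 counts of it, and the LPS replicates had 330, 368 and 340. Every LPS library lay well above the highest control library. The level rose from 10.4 ± 0.901 CPM to 21.4 ± 0.949 CPM (SD, n = 3), that is 2.06-fold or 1.04 in log2 (SE 0.10, adjusted p = 1.09e-06), below the threshold of a DEG. Over the 6 fits that each lacked a library it ran from 0.98 to 1.10, and it was 0.91 with control replicates 2 and 3 left out.

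*Cd86* (ENSMUSG00000022901, chr16:36603869-36666081, minus strand) encodes B7-2, the other ligand of that pair, which many antigen-presenting cells carry before activation. Its counts were 888, 894 and 879 in control cells and 813, 705 and 761 in LPS-stimulated cells. In CPM the groups overlapped, with 51.8, 50.7 and 47.3 against 51.5, 43.0 and 46.3. Its log2 fold change was -0.09 (SE 0.07, adjusted p = 0.373), with a 95% interval from -0.24 to 0.06. A rise of *Cd86* as large as that of *Cd80* therefore lay outside the interval. The value was -0.14 with control replicates 2 and 3 left out.

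Within each library the ratio of *Cd86* to *Cd80* counts needs no scaling between libraries, and the listed lengths of the 2 genes, 3661 and 3703 bases, are close. The ratio was 4.55, 4.99 and 4.91 in control cells and 2.46, 1.92 and 2.24 in LPS-stimulated cells. All 3 LPS libraries lay below all 3 control libraries. The mean log2 ratio was 2.27 ± 0.07 and 1.13 ± 0.18 (SD, n = 3), a difference of -1.13 with a two-sided exact permutation p = 0.1, the smallest that 3 against 3 libraries can give. *Cd86* thus had more counts than *Cd80* in every library, by a smaller factor after LPS. With control replicates 2 and 3 left out the difference was -1.05.

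**Figure D2:**
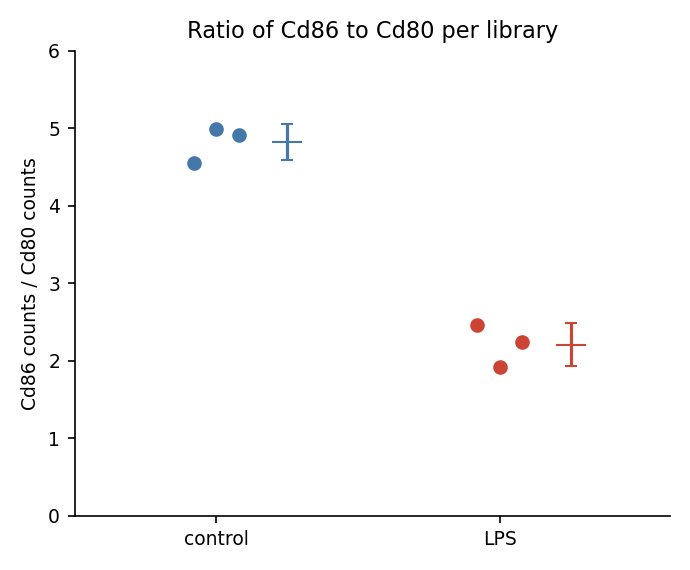
Counts of *Cd86* divided by counts of *Cd80* in each library, with the mean ± SD of each group (n = 3) beside the points. The control ratios lie between 4.55 and 4.99 and the LPS ratios between 1.92 and 2.46.

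*Cd80* and *Havcr2* were the genes that rose without reaching the DEG threshold, and the 250 bases before their RefSeq starts are shown, both on the plus strand. The *Cd80* window, chr16:38458683-38458932, precedes a RefSeq start that lies inside the gene as the deposited table gives it. It holds an AP-1 match from 42 to 36 bases before that start. The *Havcr2* window, chr11:46454681-46454930, holds the same AP-1 letters from 200 to 194 bases and a PU.1 match from 8 to 2 bases before the start.
Cd80, 250 bases before the start: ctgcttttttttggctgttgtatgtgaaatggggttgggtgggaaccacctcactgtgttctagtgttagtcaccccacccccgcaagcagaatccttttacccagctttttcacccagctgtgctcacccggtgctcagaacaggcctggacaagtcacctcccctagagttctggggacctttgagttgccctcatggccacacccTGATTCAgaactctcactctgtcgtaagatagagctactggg
Havcr2, 250 bases before the start: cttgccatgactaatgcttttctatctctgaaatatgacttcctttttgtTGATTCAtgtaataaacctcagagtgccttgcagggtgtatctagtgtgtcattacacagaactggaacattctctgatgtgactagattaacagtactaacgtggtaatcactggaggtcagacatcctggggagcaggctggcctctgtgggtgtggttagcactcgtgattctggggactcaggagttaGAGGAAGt
The AP-1 site was in 6.75% and the PU.1 site in 10.6% of all windows searched. Among the other members with a window, *Icosl* held an NF-kappa B match and *Cd276* a PU.1 match. The *Cd276* window lies inside the gene as the deposited table gives it, and the PU.1 match lies in an exon. The STAT site, present in 7.02% of all windows, had no match in the 6 windows.

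*Cd40* (ENSMUSG00000017652, chr2:165055627-165072948, plus strand) encodes the receptor through which helper T cells license antigen-presenting cells. In control cells 36, 57 and 78 counts were found, against 314, 294 and 253 with LPS. The lowest LPS library had several times the counts of the highest control library. The level rose from 3.18 ± 1.05 CPM to 17.7 ± 2.25 CPM (SD, n = 3), that is 5.54-fold or 2.47 in log2 (SE 0.18, adjusted p = 6.36e-08), and glmTreat gave an adjusted p of 9.98e-04. The control libraries differed among themselves more than counting error alone gives, with a coefficient of variation of 33.0% where Poisson counting gives 13.2%. Control *Cd40* was 2.10, 3.23 and 4.20 CPM where the summed hepatocyte markers were 5.49, 23.4 and 33.6 CPM, and the part of these transcripts in the control level was not tested. With control replicates 2 and 3 left out, the log2 fold change was 3.07 (SE 0.24). Over the 6 fits that each lacked a library it ran from 2.24 to 2.72.

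Of 12 genes of CD40 signalling and the non-canonical NF-kappa B pathway, all tested, 7 were higher with LPS, 1 was lower and 4 were not called, where 18.7% of all tested genes were higher and 15.7% lower. The median log2 fold change of the list was 0.30. *Traf1*, an adaptor that binds TNF receptor family members, was the DEG of this list. It had counts of 44, 29 and 44 in control replicates 1 to 3 and of 509, 547 and 550 in the LPS replicates, a log2 fold change of 3.91 (SE 0.13, adjusted p = 5.20e-12). *Nfkb2* and *Relb*, which encode the transcription factor subunits of the non-canonical pathway, rose by 1.48 and 1.43, just under the threshold of a DEG, and *Birc3* rose by 0.82. *Map3k14*, which encodes the kinase NIK of that pathway, was lower, at -0.37.

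*Havcr2* (ENSMUSG00000020399, chr11:46454935-46481255, plus strand) encodes TIM-3, an inhibitory receptor of T cells that microglia and other myeloid cells also carry. It had counts of 823, 876 and 951 in control replicates 1 to 3 and of 1270, 1196 and 1247 in the LPS replicates. The groups did not overlap, and the LPS libraries were close to each other. The level rose from 49.6 ± 1.56 CPM to 76.5 ± 3.81 CPM (SD, n = 3), that is 1.54-fold or 0.62 in log2 (SE 0.06, adjusted p = 4.74e-07). It was 0.67 with control replicates 2 and 3 left out. Of 6 partners of TIM-3, all tested, 1 was higher, 2 were lower and 3 were not called, with a median of -0.10, where 18.7% of all tested genes were higher and 15.7% lower. The one that rose was *Lgals9*, which encodes the ligand galectin-9, with 168, 197 and 229 counts in control cells against 783, 735 and 755 counts in LPS-stimulated cells. Its log2 fold change was 2.07 (SE 0.09, adjusted p = 1.42e-10), a DEG. *Ceacam1*, another ligand of TIM-3, was lower, at -0.43 (adjusted p = 0.00438), and *Fyn*, a kinase bound by its tail, was lower, at -0.21 (adjusted p = 0.0344).

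The 2 activation markers were DEG at a low level. *Cd83* (ENSMUSG00000015396, chr13:43784775-43803132, plus strand), known as a surface marker of mature dendritic cells, had counts of 2, 2 and 4 in control replicates 1 to 3 and of 24, 13 and 20 in the LPS replicates. Each LPS library was above each control library. The log2 fold change was 2.91 (SE 0.51, adjusted p = 4.42e-04), with a 95% interval from 1.81 to 4.01. It was 3.25 with control replicates 2 and 3 left out. The mean level with LPS was 1.18 ± 0.366 CPM (SD, n = 3).

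*Cd69* (ENSMUSG00000030156, chr6:129267325-129275436, minus strand), a C-type lectin and an early activation marker of lymphocytes, had counts of 1, 5 and 4 in control replicates 1 to 3 and of 11, 13 and 23 in the LPS replicates. LPS replicate 3 was the highest and the groups did not overlap. The log2 fold change was 2.32 (SE 0.55, adjusted p = 0.00441), with a 95% interval from 1.13 to 3.51. It was 3.88 with control replicates 2 and 3 left out. Neither marker passed glmTreat, which gave adjusted p = 0.145 for *Cd83* and adjusted p = 1 for *Cd69*, and a filter at a mean of 10 counts leaves *Cd69* untested.

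CD83 is known to hold MHC class II and CD86 at the cell surface. Of the 8 genes listed as its partners 4 were in the table, and *Cd74*, which encodes the invariant chain, was the one tested. *Cd74* rose from 347 ± 1.63 CPM to 472 ± 19.2 CPM (SD, n = 3), a log2 change of 0.44 (adjusted p = 5.96e-07). The MHC class II genes *H2-Ab1* and *H2-Aa* and their transactivator *Ciita* had at most 3 counts in any library.

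**Figure D3:**
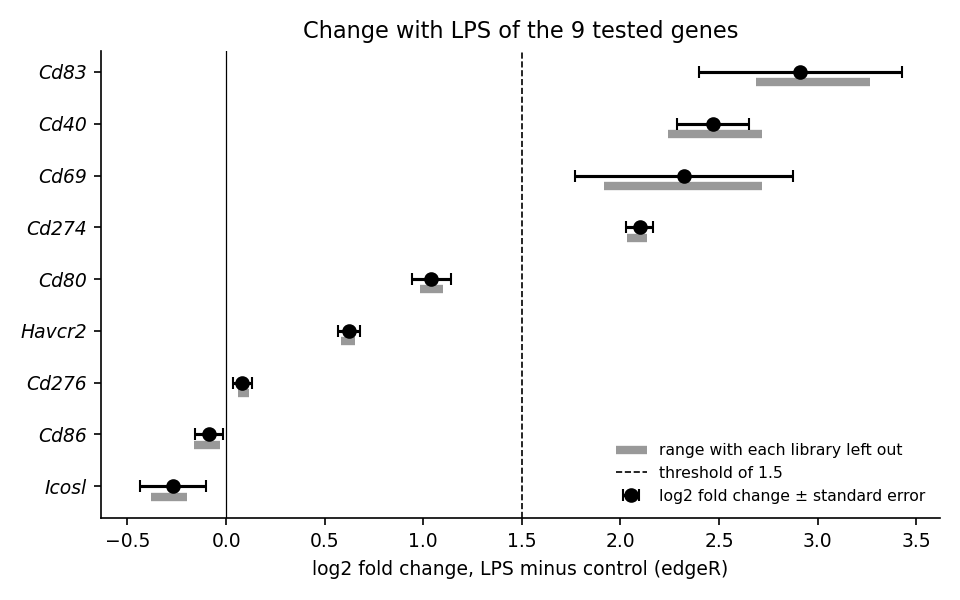
Log2 fold change of LPS against control for the 9 tested genes, as points with standard errors from edgeR, with grey bars for the range when each library was left out in turn and a dashed line at 1.5. The points of *Cd83*, *Cd40*, *Cd69* and *Cd274* lie beyond 2, with wider errors for *Cd83* and *Cd69*, and those of *Cd276*, *Cd86* and *Icosl* lie near 0.

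*Cd276* (ENSMUSG00000035914, chr9:58524298-58555437, minus strand) encodes B7-H3, a B7 relative without a settled receptor. Control replicates 1 to 3 had 1631, 1733 and 1779 counts of it, and the LPS replicates had 1530, 1702 and 1729. The groups overlapped in CPM, at 96.4 ± 1.63 in control and 102 ± 4.43 in LPS-stimulated cells (SD, n = 3). The log2 fold change was 0.08 (SE 0.05, adjusted p = 0.207), with a 95% interval from -0.02 to 0.18, so a change as large as that of *Havcr2* lay outside it. *Gm10657*, which overlaps *Cd276* on the other strand, had at most 1 count in any library.

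*Icosl* (ENSMUSG00000000732, chr10:78069302-78083913, plus strand) encodes the ligand of the T cell costimulator ICOS. Its counts were 86, 106 and 98 in control cells and 66, 68 and 85 in LPS-stimulated cells. LPS replicate 3 lay among the control libraries in CPM. The log2 fold change was -0.27 (SE 0.17, adjusted p = 0.245), with a 95% interval from -0.63 to 0.09. With control replicates 2 and 3 left out the values of *Icosl* and *Cd276* were -0.16 and 0.10, and neither was called.

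The genes differed widely in level and their order was not the same in the 2 groups. Per kilobase of the listed gene length, control cells had most *Cd276* (26.3 CPM per kb), followed by *Havcr2* (18.2) and *Cd86* (13.6), and after these *Cd274* at 5.16 CPM per kb. With LPS *Havcr2* (28.1) and *Cd276* (27.9) overlapped in their libraries, and *Cd274* at 22.1 CPM per kb came next, above *Cd86* at 12.8. *Cd80* and *Cd40* followed at 5.77 and 5.21 CPM per kb and overlapped, whereas in control cells they were at 2.80 and 0.933 and *Cd40* overlapped with *Icosl* (1.18). The lowest in control cells were *Pdcd1lg2* (0.0675 CPM per kb), *Cd83* (0.0577) and *Cd69* (0.0285), where the libraries of *Pdcd1lg2* overlapped with those of both others. The remaining genes with LPS were *Icosl* at 0.974, *Cd83* at 0.458, and *Cd69* (0.148) and *Pdcd1lg2* (0.113), which overlapped. Summed over the 10 genes, the counts were 0.0239%, 0.0246% and 0.0241% of the control libraries and 0.0340%, 0.0333% and 0.0345% of the LPS libraries. *Cd274* accounted for 7.45% to 8.35% of that sum in control cells and for 21.6% to 23.7% with LPS, where *Cd276* went from between 41.1% and 41.2% to between 27.5% and 30.1%.

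A list of 16 costimulatory and checkpoint receptors and partners of T cells held both receptors of these ligands (*Cd28*, *Ctla4*, *Icos*, *Pdcd1* and the CD40 ligand gene *Cd40lg*) and receptors of other ligands. Of the 16 genes 3 were tested, and 5 had no count in any library, all of them receptors of other ligands. Among the receptors and partners of the 10 genes, *Ctla4*, *Icos* and *Cd40lg* had at most 1, 4 and 2 counts and were too low to be tested. The receptor of PD-L1 itself, *Pdcd1*, had counts of 629, 678 and 662 in control replicates 1 to 3 and of 1120, 1291 and 1147 in the LPS replicates. All LPS libraries were above all control libraries, and *Pdcd1* rose from 36.9 ± 1.42 CPM to 73.2 ± 4.84 CPM (SD, n = 3), a log2 change of 0.99 (SE 0.06, adjusted p = 1.00e-08). *Cd28*, the receptor of CD80 and CD86, moved the other way. It had counts of 385, 423 and 490 in control replicates 1 to 3 and of 177, 169 and 158 in the LPS replicates, a log2 fold change of -1.23 (SE 0.10, adjusted p = 2.19e-07). *Tnfrsf9*, which encodes 4-1BB, the receptor of the *Tnfsf9* product and of none of the 10 genes, had 10, 7 and 5 counts in control and 60, 58 and 54 counts in LPS libraries, and was a DEG with a log2 fold change of 3.08 (SE 0.32, adjusted p = 2.45e-06). The median of the 3 tested genes was 0.99.

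T cell markers other than *Lck* were near 0 in the same libraries. Of 12 T cell markers 7 had no count in any library, *Cd3e*, *Cd3g* and *Cd8a* among them, and the summed level was between 5.81 and 6.66 CPM in control and between 8.90 and 11.4 CPM in LPS libraries. Nearly all of it was *Lck*, which rose by 0.62 on the log2 scale (adjusted p = 0.00327). Of 6 NK cell markers none was tested, and no library had more than 4 counts of them together. The dendritic cell markers *Ccr7*, *Clec9a* and *Siglech* had no count, and the sum over 8 such markers was between 6.29 and 7.01 CPM in control and between 16.4 and 19.8 CPM in LPS libraries. In the LPS libraries most of it was *Xcr1*, and in control cells *Zbtb46* was higher, at 3.49 CPM against 2.42 CPM of *Xcr1*. *Xcr1* had counts of 51, 29 and 49 in control replicates 1 to 3 and of 221, 258 and 221 in the LPS replicates (log2 fold change 2.57, SE 0.18, adjusted p = 2.42e-08). Of 7 B cell markers *Ms4a1* had no count, *Blnk* rose by 0.59 (adjusted p = 9.49e-05), and *Pax5*, a DEG, had no count in control cells and 18, 11 and 10 counts after LPS. The sum over the B cell markers was between 21.4 and 27.3 CPM in control and between 37.1 and 39.4 CPM in LPS libraries.

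**Figure D4:**
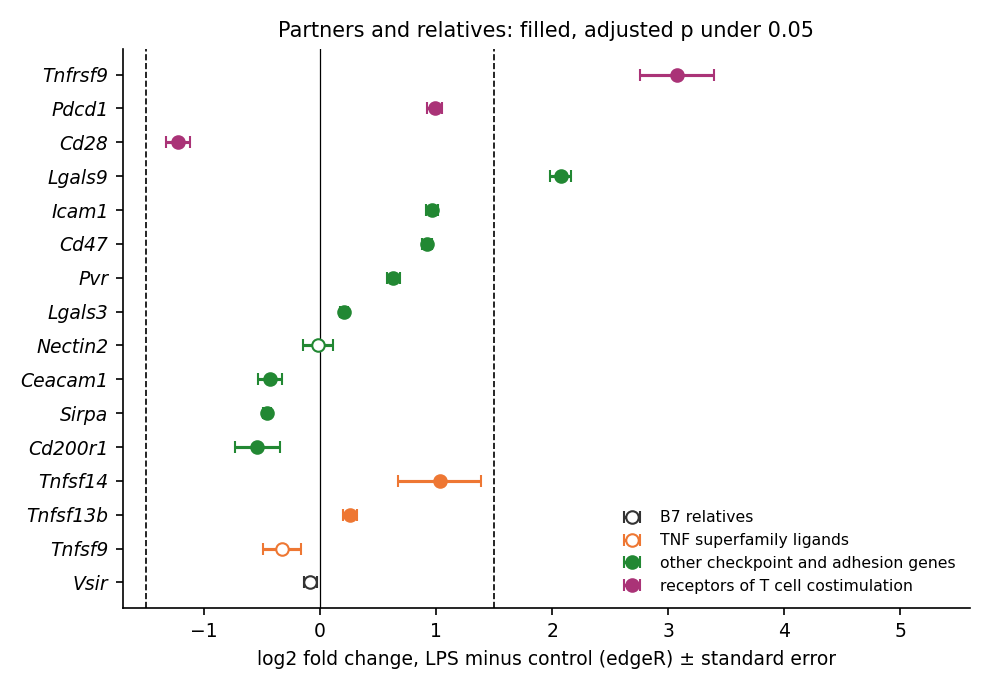
Log2 fold change of LPS against control with its standard error (edgeR) for the tested genes of the receptors of T cell costimulation and of 3 groups of ligands related to the 10 genes, with dashed lines at 1.5 in either direction. Filled points have an adjusted p under 0.05, *Tnfrsf9* and *Lgals9* lie beyond 1.5, and *Cd28* lies at -1.23.

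Many relatives of the 10 genes were below the filter on low counts. Of 8 further B7 and butyrophilin genes 7 were in the table and only *Vsir*, which encodes the checkpoint ligand VISTA, was tested. *Vsir* was at 103 ± 5.04 CPM in control and 97.2 ± 6.09 CPM in LPS-stimulated cells (SD, n = 3) and was not called (log2 fold change -0.08, adjusted p = 0.277). Of 8 costimulatory ligands of the TNF superfamily 3 were tested, with 2 higher, none lower and a median log2 fold change of 0.26, against the same 18.7% and 15.7% of all tested genes. *Tnfsf14*, which encodes LIGHT, rose by 1.03 (adjusted p = 0.0379), *Tnfsf13b*, which encodes the B cell factor BAFF, rose by 0.26 (adjusted p = 0.00396), and *Tnfsf9* was not called. Of 16 other checkpoint and adhesion genes 9 were tested, with 5 higher, 3 lower and a median of 0.21, beside 18.7% higher and 15.7% lower among all tested genes. Besides *Lgals9*, the higher ones were *Icam1* at 0.96, the don't-eat-me signal *Cd47* at 0.92, *Pvr* at 0.63 and *Lgals3* at 0.21, and the lower ones were *Cd200r1* at -0.54, *Sirpa* at -0.46 and *Ceacam1* at -0.43.

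Of 14 genes known to regulate PD-L1, all tested, 11 were higher with LPS, none was lower and 3 were not called, where 18.7% of all tested genes were higher and 15.7% lower. The median log2 fold change of the list was 0.28 beside 0.0036 over all tested genes. The DEG among them included *Myc* at 2.95 (SE 0.14, adjusted p = 2.96e-10), the cytokine signalling inhibitor *Socs1* at 2.37 (SE 0.36, adjusted p = 1.28e-04), and the interferon-response factor *Irf9* at 2.08 (SE 0.07, adjusted p = 8.00e-12). *Nfkb1* and *Irf1* rose by 1.36 and 1.30, and *Cmtm6*, which protects PD-L1 from degradation, by 0.27. *Jak2* was not called, at -0.09.

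With control replicates 2 and 3 left out, 76 of the 90 tested genes of the lists and chromosomal neighbours had the same call, 14 were no longer called, and no called gene changed sign. *Traf1*, *Lgals9*, *Pdcd1*, *Cd28*, *Tnfrsf9* and *Xcr1* kept their calls, with log2 fold changes of 3.68, 2.25, 1.00, -1.11, 2.59 and 2.27. Genes of the lists that were no longer called included *Tnfsf14* (0.68), *Tnfsf13b* (0.26), *Ceacam1* (-0.44), *Cd200r1* (-0.62), *Map3k14* (-0.27), *Cmtm6* (0.18), *Fyn* (-0.29) and *Lck* (0.56).

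For the members with a mean count of 50 or more, the tested genes with the nearest pattern over the 6 libraries were found by the Euclidean distance between log2 CPM centred on each gene's mean. The same libraries give the fold changes, so a near gene has a similar fold change by the way it was chosen. Nearest to *Cd274* were *Parp10* (distance 0.103), *Phf11b* (0.130) and *Casp4* (0.133), with log2 fold changes of 2.04, 2.18 and 2.11. *Cd80* lay nearest to *Sdc4* (0.0439), *Smim3* (0.0839) and *Rilpl2* (0.101). *Cd40* had no close neighbour, and its nearest genes, *A530032D15Rik* (0.494), *Gpr84* (0.496) and *Ier3* (0.526), were farther away than those of *Cd274*. Their log2 fold changes were 3.47, 2.40 and 2.42, beside 2.47 for *Cd40*. *A530032D15Rik* was at only 0.242 CPM in control cells, near the level of 3 counts. The part of the spread of *Cd40* between control libraries (33.0%) in these distances was not tested. Nearest to *Havcr2* were *Cth* (0.0764), *Ifngr2* (0.0779) and *Casp1* (0.0864). For *Cd86* the nearest genes were *Anks1* (0.0501), *Mccc1* (0.0595) and *Fundc2* (0.0631). For *Icosl* they were *Ccdc15* (0.0562), *Pcmtd2* (0.0809) and *Cyb561* (0.0848), and for *Cd276* *Slc1a5* (0.0432), *Cars* (0.0462) and *Eif3a* (0.0465).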

How the data were processed

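RNA-seq of 6 samples of N9 microglia was analysed, 3 control and 3 LPS-stimulated, grouped by the labels, which give treatment and replicate number. The authors deposited read counts per gene, whole numbers without normalization, for 54532 genes. The submitters' processing notes name featureCounts version 1.5.0-p3 and the build mm10, and the aligner and the use of strand are not given in the sources used here. A second deposited table holds the authors' own fold changes and p-values, and its 20 columns of values were not used.

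Counts were tested with edgeR version 4.0.16 under R version 4.3.3 (TMM normalization, filterByExpr by group, quasi-likelihood test, prior count 0.125, no replicate term), with Benjamini-Hochberg adjustment over 12296 genes. TMM factors were between 0.965 and 1.04. CPM uses TMM-scaled library sizes. Without molecular identifiers, PCR copies count as separate reads, so intervals on counts cover counting error only. Ratios of counts were compared by exact permutation. The fits were tested on simulated data, where changes were placed only in well-counted genes and were all larger than the DEG threshold. That test covers neither the low counts of *Cd69* and *Cd83* nor the smaller changes of *Cd80* and *Havcr2*. Promoters came from RefSeq (GRCm38.p6), of which 32807 of 32851 windows could be searched, and gene positions from the deposited table.

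The 10 genes, the 15 gene lists and the tests were chosen with earlier results of these data known. Named genes are the 10 genes, the DEG of each list (the 4 with the largest changes where more were called), the nearest protein-coding gene on each side whose mean count reached 10, and the 3 genes nearest in pattern. Further genes of the lists were named after their values were seen. Some genes of the lists are not reported here by name. The alternatives tried were a replicate block, RLE size factors, DESeq2 version 1.42.0, other filters, robust dispersion, glmTreat, a prior count of 2, each library left out in turn, and control replicates 2 and 3 left out.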

Additional observations from a re-analysis of the deposited data

How the results depend on the processing

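With each of the 6 libraries left out in turn, with DESeq2, RLE size factors, no filter, a prior count of 2, robust dispersion, or control replicates 2 and 3 left out, 4 of the 10 genes were DEG and 6 were higher at an adjusted p under 0.05. With a filter at a mean of 10 counts, *Cd69* was untested and the counts were 3 and 5. Without a filter *Pdcd1lg2* was tested and not called (log2 fold change 0.68, adjusted p = 0.731). No direction reversed.

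glmTreat at 1.5 asks for a change beyond that size, so fewer genes can pass it: 183 DEG were called in place of 326, 2 of the 10 genes were called (*Cd274* and *Cd40*) and 2 had an adjusted p under 0.05. The log2 fold changes no longer called were 1.04 for *Cd80*, 2.32 for *Cd69*, 2.91 for *Cd83* and 0.62 for *Havcr2*. The other fits gave between 305 and 469 DEG, the latter without a filter, where edgeR estimated infinite prior degrees of freedom.

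After the mean of each group was subtracted, control and LPS libraries of the same replicate number had correlations of 0.135, 0.0504 and 0.0118. Those of different number had correlations between -0.115 and 0.0698. With 3 libraries per group these values cannot show whether the replicates were paired, and the main fit has no replicate term. A fit with a replicate block gave 329 DEG, with the same 4 DEG and 6 higher genes among the 10. For the ratios of counts a replicate block leaves the difference of the group means as it is, 1.52 and -1.13, so it shows nothing about them. The log2 difference in the ratio of *Cd274* to *Pdcd1lg2* was 0.87 without LPS replicate 2 and 0.83 without control replicates 2 and 3, the latter chosen after seeing the data.

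The low counts of *Cd69*, *Cd83* and *Pdcd1lg2* limit their precision. The *Cd69* log2 fold change ran from 1.83 with a prior count of 2 to 3.88 with control replicates 2 and 3 left out, and that of *Cd83* from 2.27 to 3.26 over the alternatives. The counts measure RNA, and protein at the cell surface was not analysed here.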

Other observations

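Genes beside the 10 on the chromosome were looked at in the same fit, taking the nearest protein-coding gene on each side with a mean of at least 10 counts. Next to *Cd69*, in a cluster of C-type lectin genes on chromosome 6, *Clec2d* lies 80791 bases away. It had counts of 0, 4 and 4 in control replicates 1 to 3 and of 23, 25 and 39 in the LPS replicates, and was a DEG with a log2 fold change of 3.51 (SE 0.55, adjusted p = 1.43e-04). On the other side of *Cd69*, *Clec12a* was not called, at -0.20 (adjusted p = 0.272). Next to *Cd86* on chromosome 16, *Stfa3*, which encodes a cysteine protease inhibitor and has close paralogs, had counts of 4, 5 and 11 in control replicates 1 to 3 and of 12, 31 and 16 in the LPS replicates, a log2 fold change of 1.68 (SE 0.49, adjusted p = 0.0159). With control replicates 2 and 3 left out, 5 of these neighbours were no longer called. The log2 fold change of *Stfa3* was then 2.34 in place of 1.68 and that of *Adprh* 0.09 in place of 0.19, while *Ncoa5* (0.17 in both fits), *Slc35c2* (-0.15 in both fits) and *Mcur1* (0.24 in place of 0.26) were about as far from 0 as before. *Clec2d* was still a DEG, at a fitted 7.88 in place of 3.51, a value that depends on the prior count because the lone control had no count.

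The other neighbours differed by less. Beside *Cd80*, *Adprh* rose by 0.19 (adjusted p = 0.0400) and *Timmdc1* was not called, at -0.01. Beside *Cd40*, *Ncoa5* rose by 0.17 (adjusted p = 0.0157) and *Slc35c2* was lower, at -0.15 (adjusted p = 0.0230). Beside *Cd83*, *Mcur1* rose by 0.26 (adjusted p = 0.00244) and *Jarid2* was not called, at 0.21. Beside *Cd276*, *Nptn* was lower, at -0.23 (adjusted p = 7.58e-04), and *Tbc1d21* was not called, at -0.79. *Slc15a2* beside *Cd86*, *Dnmt3l* and *D10Jhu81e* beside *Icosl*, and *Med7* and *Rack1* beside *Havcr2* were not called.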
